A study of Mus musculus with 4 samples.

Results

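The genes described here are 10 members of the pathway by which cells sense bacterial products: the co-receptor Cd14, the Toll-like receptors Tlr2 and Tlr4, the NF-kB subunit genes Nfkb1, Nfkb2, Rel and Relb, and the regulators Nfkbia, Nfkbiz and Tnfaip3. They were taken by symbol from a deposited table of 34315 features, where each matched 1 feature, and all 10 were chosen with their difference between genotypes already known. The RNA came from C57BL/6 haematopoietic stem cells (HSCs), which sit in the marrow and give rise to all blood lineages. The cells were freshly sorted as SP-KSL-CD150+, where SP stands for side population, cells that pump out a DNA-binding dye. The 4 wild-type libraries are labelled technical replicates of 1 biological replicate, although the series design speaks of duplicates. The other arm is labelled as Dnmt3a-KO, lacking a de novo DNA methyltransferase, and entered only as the authors' mean count per feature and their deposited comparison, so its spread between libraries was not examined. The sources used here state neither how the allele was made nor the age of the animals.

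Cd14 binds bacterial lipopolysaccharide (LPS) at the cell surface and passes it to Tlr4 and the Tlr4 partner Ly96, and it also serves Tlr2, which recognises bacterial lipoproteins. Both receptors signal through the adaptor Myd88 to the IkB kinase complex, which has IkB proteins degraded and so frees NF-kB dimers to enter the nucleus. Rela, Rel and the Nfkb1 product act in this canonical arm, while Relb with the Nfkb2 product acts in a slower, noncanonical arm driven by the kinase Map3k14. Several parts of the pathway are themselves NF-kB targets, among them the inhibitor gene Nfkbia and the feedback gene Tnfaip3. HSCs are known to carry Toll-like receptors and to respond to their ligands.

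Promoters of 5 of the 10 genes were at hand (RefSeq, GRCm38.p6), for Tlr2, Rel, Nfkb2, Nfkbia and Tnfaip3, and they are shown because these genes belong to a pathway whose own factor binds a known motif. The NF-kB consensus, a motif of 10 bases, was searched on both strands in the 250 bases before each start site. All 5 genes held at least 1 match in a window, against 7.25% of the 32851 promoter windows of the same length and 8.23% of the 27025 genes with any window. Overlapping matches were joined, and the capitals below mark the matched bases within 60 bases of each promoter. A match describes these letters and does not show that the factor binds there.
Tlr2, chr3:83841747-83841806, minus strand: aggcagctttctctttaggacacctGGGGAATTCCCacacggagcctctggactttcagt
Rel, chr11:23771027-23771086, minus strand: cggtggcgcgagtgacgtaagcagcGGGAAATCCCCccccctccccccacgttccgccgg
Nfkb2, chr19:46304677-46304736, plus strand: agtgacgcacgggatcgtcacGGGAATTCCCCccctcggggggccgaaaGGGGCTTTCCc
Nfkbia, chr12:55492648-55492707, minus strand: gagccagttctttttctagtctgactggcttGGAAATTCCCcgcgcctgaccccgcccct
Tnfaip3, chr10:19015411-19015470, minus strand: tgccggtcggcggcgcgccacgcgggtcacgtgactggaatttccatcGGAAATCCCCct

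The match of Nfkbia ended 20 bases before its start site, that of Tnfaip3 shown here 3 bases before it, and that of Tlr2 163 bases before it. Nfkb2 had 3 annotated start sites and a match before each, and Tnfaip3 had 2, of which the other held no match. Among NF-kB target genes with a window, 19 of 50 held a match, and these include 4 of the 5 genes shown.

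Library totals ran from 40709659 to 47408552 counts. Counts were divided by size factors and are given as normalised read counts. The chi-square per degree of freedom between libraries 1 and 2 had a median of 0.763 and a mean of 2.03 over features, and between libraries 3 and 4 a median of 0.682 and a mean of 1.87. Counting noise alone gives a mean near 1, so the libraries of a pair differed by somewhat more than that. Between libraries of different pairs the medians were at least 11.99 and the means at least 125, so each pair was averaged and counts as 1 sample. No test was run between the pairs, which are not labelled groups. The HSC markers were present, with Kit at 56138 and 65243 normalised read counts in the pairs. Dnmt3a itself stood at 8399 and 5304 in the pairs and at 8424 in the arm labelled knockout, which leaves the label unchecked, because reads from any remaining exon are counted too.

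Cd14 was nearly silent in wild-type HSCs and abundant in the arm labelled knockout. The gene (chromosome 18, 36884721 to 36886308, mm9) had 33, 29, 81 and 91 reads in libraries 1 to 4, or 34.7, 30.4, 77.3 and 85.5 normalised read counts. The exact Poisson 95% interval was 19.4 to 41.6 reads in library 2 and 64.3 to 100.7 in library 3, and these intervals reflect counting alone, as PCR can copy a molecule. Libraries 3 and 4 were therefore higher than libraries 1 and 2 beyond counting error, by 2.50-fold between the pair means. The mean of the arm labelled knockout was 2324 on the same scale, above all 4 wild-type libraries. It was 71.4 times the level of libraries 1 and 2 and 28.6 times that of libraries 3 and 4. Cd14 rose 39.8-fold per the authors' deposited table (adjusted p = 9.39e-06). Here and below, a gene rose, fell or was called only where this adjusted p was below 0.05, and others may still differ. The wild-type libraries behind it are labelled technical replicates of 1 biological replicate, so this p may leave out the spread between animals. In bulk RNA such as this, more cells that express a gene and more RNA per cell cannot be told apart.

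The LPS receptor Tlr4 did not share that pattern. Tlr4 (chromosome 4, 66488845 to 66503830) had 1466, 1421, 1967 and 2022 normalised read counts in libraries 1 to 4, against 1083 in the arm labelled knockout. It was the 1 gene of the 10 whose knockout mean lay below both wild-type pairs, a position held by 43% of the 17685 features with a mean of at least 10. Its log2 fold change was -0.67 per the authors' deposited table (adjusted p = 0.825), so it was not called. Ly96, the protein that completes the receptor, was at 90.8 and 142 in the pairs and 52.1 in the arm labelled knockout. Per kb of exon, the scale used here to compare genes, wild-type HSCs had 17.3 Tlr4 reads for each Cd14 read in the first pair and 9.54 in the second. In the arm labelled knockout the balance was the other way, with 5.51 Cd14 reads per kb for each of Tlr4. These ratios lie within a sample, so scaling between samples does not enter them.

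Tlr2 was higher in the arm labelled knockout but not called. Tlr2 (chromosome 3, 83640194 to 83645530) had 830, 779, 1012 and 979 normalised read counts in libraries 1 to 4, against 3343 in the arm labelled knockout. The log2 fold change of 1.89 per the authors' deposited table had an adjusted p of 0.189. Libraries 3 and 4 exceeded libraries 1 and 2 by 1.24-fold, less than the distance of either pair to the knockout mean. Among the 12 Toll-like receptor genes, 11 were measured, which here means a mean of at least 10 normalised read counts over both arms. A gene can reach this level through 1 arm alone. None of the 11 was called higher and 1 was called lower, where 3.15% and 3.7% of 21778 features tested were. The median log2 fold change per the authors' deposited table was -1.83 against -0.10 over those features. Of the 11, 10 had a negative value, and Tlr2 was the exception with a positive one. Tlr2 and Tlr4 were chosen with this difference known. Tlr1, Tlr5, Tlr7, Tlr8, Tlr9 and Tlr13 were below 50 normalised read counts in both wild-type pairs. Of these, Tlr1, Tlr7, Tlr8, Tlr9 and Tlr13 were at 2.97 to 6.59 in the arm labelled knockout. They reached the minimum level only through wild type, so the count of negative values and the median rest partly on genes with few reads. The more abundant Tlr3, Tlr4 and Tlr6 had log2 fold changes of -0.95, -0.67 and -0.79 per the authors' deposited table. The gene that fell was Tlr12, a receptor for a parasite protein, by 8.22-fold per the authors' deposited table (adjusted p = 0.0179). Tlr1 and Tlr6, which pair with Tlr2, had log2 fold changes of -1.83 and -0.79 and were not called per the authors' deposited table.

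**Figure D1:**
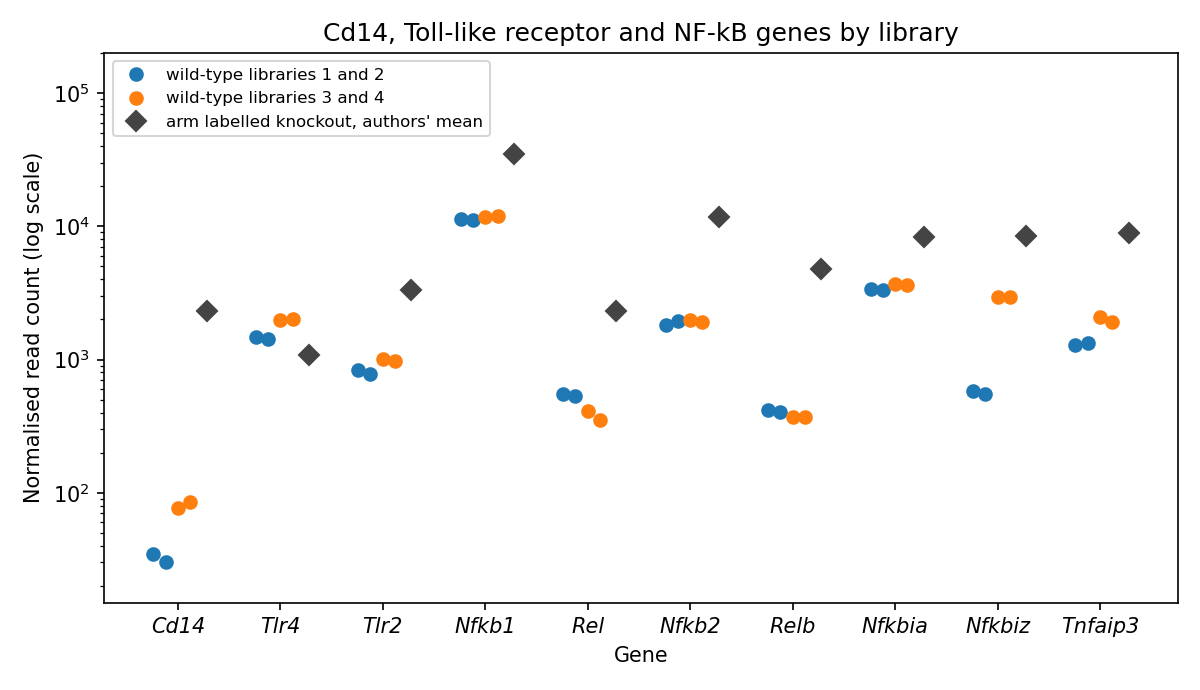
Normalised read counts (log scale) of the 10 genes, with 1 point for each wild-type library (blue for libraries 1 and 2, orange for 3 and 4) and a diamond for the authors' mean of the arm labelled knockout. The diamond lies above all 4 wild-type points for 9 genes and below them for Tlr4, and only Cd14 and Nfkbiz among the 10 are at least 2-fold apart between the pairs.

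Among NF-kB subunit genes, the noncanonical Relb and Nfkb2 rose in the arm labelled knockout. Relb (chromosome 7, 20191571 to 20214787) had 420, 404, 369 and 372 normalised read counts in libraries 1 to 4, against 4791 in the arm labelled knockout. It rose 12.2-fold per the authors' deposited table (adjusted p = 0.00260). Nfkb2, whose product is processed to the Relb partner (chromosome 19, 46379227 to 46386580), had 1828, 1932, 1991 and 1926 normalised read counts and 11730 in the arm labelled knockout. It rose 6.11-fold per the authors' deposited table (adjusted p = 0.0390). The wild-type libraries of these genes lay close together and far below the knockout mean. Nfkb2 shares 4 bases with the end of the neighbouring gene Psd, and no other gene of the 10 overlaps a feature of the table.

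The canonical subunit genes were not called. Rel, prominent in lymphocytes (chromosome 11, 23641729 to 23670970), had 547, 537, 413 and 351 normalised read counts in libraries 1 to 4, against 2318 in the arm labelled knockout. For this gene the log2 fold change was 2.32 per the authors' deposited table (adjusted p = 0.0760). Rel was 1.42-fold lower in libraries 3 and 4 than in libraries 1 and 2, so that its knockout mean was 4.28 times the first pair and 6.07 times the second, where Nfkb2 had 6.24 and 5.99. Nfkb2 thus had the larger fold against the first pair, while the folds of Rel and Nfkb2 were nearly equal against the second. Nfkb1, the precursor of the p50 subunit (chromosome 3, 135247619 to 135354511), had 11344, 11123, 11765 and 11903 normalised read counts and 34772 in the arm labelled knockout. For this gene the log2 fold change of 1.59 came with adjusted p = 0.316 per the authors' deposited table. Rela, which is not among the 10, stood at 5002 and 5759 in the pairs and at 11332 in the arm labelled knockout, with log2 fold change 1.07 and adjusted p = 0.603 per the authors' deposited table. All 5 subunit genes had positive values and 2 rose, and the median log2 fold change per the authors' deposited table was 2.32. Of these 5 genes, 4 were chosen with this difference known, both called ones included, so the count and median describe the choice.

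The make-up of the subunit transcripts differed accordingly. Of all reads per kb over the 5 subunit genes, Nfkb1 held 47.95% to 49.6% in the 4 wild-type libraries and 43.9% in the arm labelled knockout. Rela held 33.1% to 36.4% and 21.7%. Nfkb2 held at most 10.6% in wild type and 18.5% in the arm labelled knockout. For Relb the shares were 2.81% to 3.43% in wild type and 11.3% in the arm labelled knockout. Wild-type HSCs had 9.85 and 12.6 Rela reads per kb for each of Relb in the pairs, against 1.92 in the arm labelled knockout. The share of Rel, from 2.32% to 3.80% in wild type and 4.65% in the arm labelled knockout, differed less.

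**Figure D2:**
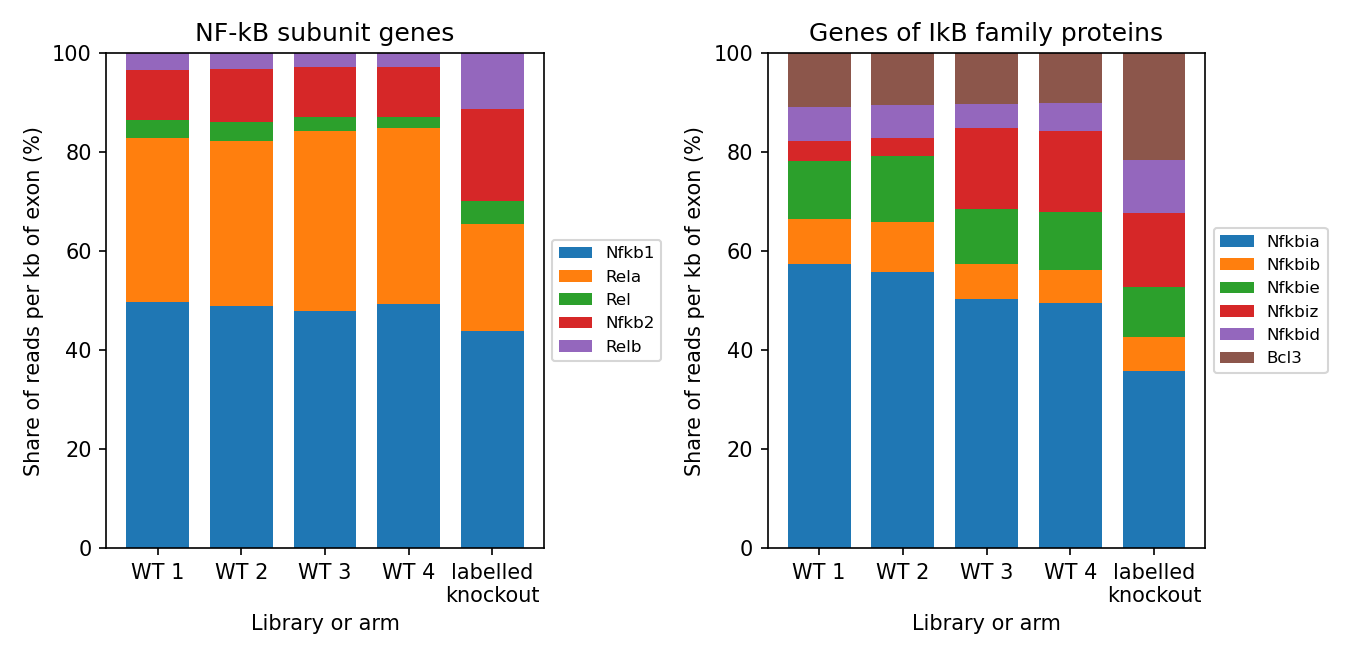
Stacked bars give each gene's share (%) of the reads per kb of exon over 5 NF-kB subunit genes (left) and 6 genes of IkB family proteins (right), for each wild-type (WT) library and the authors' mean of the arm labelled knockout. Relb and Nfkb2 take 11.3% and 18.5% in the arm labelled knockout against at most 3.43% and 10.6% in wild type, and Nfkbiz separates libraries 1 and 2 from 3 and 4.

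Regulators of NF-kB were also higher in the arm labelled knockout, although none of the 3 among the 10 genes was called. Nfkbia, the main cytoplasmic inhibitor (chromosome 12, 56590396 to 56593634), had 3387, 3348, 3660 and 3610 normalised read counts in libraries 1 to 4, against 8248 in the arm labelled knockout. For this gene the log2 fold change of 1.24 came with adjusted p = 0.505 per the authors' deposited table, the smallest of the 9 positive values. Tnfaip3, which encodes the ubiquitin-editing enzyme A20 (chromosome 10, 18720717 to 18735216), had 1279, 1336, 2094 and 1926 normalised read counts and 8941 in the arm labelled knockout. For this gene the log2 fold change of 2.43 came with adjusted p = 0.0599 per the authors' deposited table, which places it just outside the calls, as Nfkb2 is just inside.

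Nfkbiz, a nuclear IkB protein that helps switch on secondary response genes (chromosome 16, 55811490 to 55838754), was the gene of the 10 that separated the wild-type pairs most. It had 584 and 552 normalised read counts in the first pair, against 2929 and 2950 in the second, a 5.18-fold difference. The arm labelled knockout stood at 8478, which is 14.9 times libraries 1 and 2 but 2.88 times libraries 3 and 4. Against the mean of all 4 libraries the log2 fold change was 2.27 per the authors' deposited table (adjusted p = 0.0859). The size of its difference thus depends on which wild-type pair it is set against.

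Among 9 IkB family genes and their partners, all were measured, and 2 rose and 0 fell, where 3.15% and 3.7% of 21778 features tested did. The median log2 fold change per the authors' deposited table was 1.53. Nfkbia and Nfkbiz, which are in this list, were chosen with this difference known, so the median partly describes the choice. The genes that rose were Bcl3, a nuclear IkB protein that binds p50 and p52 homodimers, and Nfkbid, another nuclear IkB protein. Bcl3 went from 738 and 859 normalised read counts in the pairs to 5793, by 7.24-fold per the authors' deposited table (adjusted p = 0.0210). Nfkbid went from 509 and 486 to 3112, by 6.24-fold per the authors' deposited table (adjusted p = 0.0361). The cytoplasmic inhibitors Nfkbib and Nfkbie had log2 fold changes of 1.53 and 1.57 per the authors' deposited table and were not called. Over 6 IkB family genes, the share of Nfkbia in reads per kb was 49.6% to 57.4% in wild type and 35.8% in the arm labelled knockout, while that of Bcl3 was 10.1% to 10.9% and 21.7%.

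Of the 10 genes, 3 were called higher (Cd14, Nfkb2 and Relb) and 0 lower by the authors' deposited table, taking adjusted p below 0.05 as the threshold, against 3.15% of 21778 features called higher and 3.7% called lower. Both wild-type pairs were below the knockout mean for 9 of 10, where 40.9% of 17685 features did, and was at least 2-fold above the wild-type mean for the same 9, where 16.4% of features were. The members were chosen on this contrast, so these counts describe the choice. The median log2 fold change of the 10 was 2.30 per the authors' deposited table.

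Transcript levels per kb put Nfkb1 first in wild-type HSCs at 2818 normalised read counts per kb, above 93.9% of the 17661 features with a wild-type mean of at least 10. Nfkbia followed at 2226 and Nfkb2 at 587 per kb. Nfkb1, Nfkbia and Nfkb2 were separated from each other by more than the spread of the pairs. Below them, Nfkbiz, Tlr4, Tnfaip3 and Tlr2, from 454 to 316 per kb, each overlapped the next in the ranges of their pair means, and Nfkbiz also overlapped Nfkb2. The mean of Nfkbiz describes neither pair, since it was 147 per kb in libraries 1 and 2, below Rel and Relb at 211 and 188, and 761 in libraries 3 and 4, above Nfkb2 at 599. Rel and Relb, at 179.5 and 178.7 per kb, overlapped each other as well. Cd14 was last at 38.1 per kb, above 20.8% of features. In the arm labelled knockout the order again began with Nfkb1, Nfkbia and Nfkb2, at 8495, 5244 and 3588 per kb. Relb stood at 2189 and Cd14 at 1555 per kb there, above Tlr2 at 1172 and Rel at 900.4, and Tlr4 was last at 282 per kb.

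Between the wild-type pairs, 2 of the 10 genes, Cd14 and Nfkbiz, were at least 2-fold higher in libraries 3 and 4, where 3.23% of 17661 features were, and 0 were at least 2-fold lower, where 9.71% were. Nfkbiz was also the 1 gene of the 10 at least 4-fold higher there, as were 0.549% of features. Another 7 genes were within 1.5-fold between the pairs, and Tnfaip3 was 1.54-fold higher in libraries 3 and 4. Immediate early genes, which respond within minutes to signals and to cell handling, were higher in the same libraries as Cd14 and Nfkbiz. Of 31 such genes measured in wild type, 27 were at least 2-fold higher in libraries 3 and 4, and their summed level was 36718 and 37210 normalised read counts in the first pair but 363869 and 355730 in the second. The sum in the arm labelled knockout was 357178. Their part in the levels of Cd14 and Nfkbiz was not tested. Per the authors' deposited table, 9 of the 32 immediate early genes rose and 3 fell (Fos, Klf2 and Myc), where 3.15% and 3.7% of 21778 features tested did. Nr4a3, among the 9, reached the minimum level only through the arm labelled knockout, with 7.88 and 7.09 in the pairs and 12621 there. The median log2 ratio of the list was 3.46 with the first pair as reference and 0.53 with the second, and Fos and Klf2 were higher in the arm labelled knockout than in the first pair. Fos went from 854 to 49960 between the pairs, with 4173 in the arm labelled knockout, and Egr3 from 5.24 to 525, with 2983. Among feedback regulators the stress factor Atf3 went from 8.92 to 557 and the RNA-binding protein Zfp36 from 1721 to 39957.

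**Figure D3:**
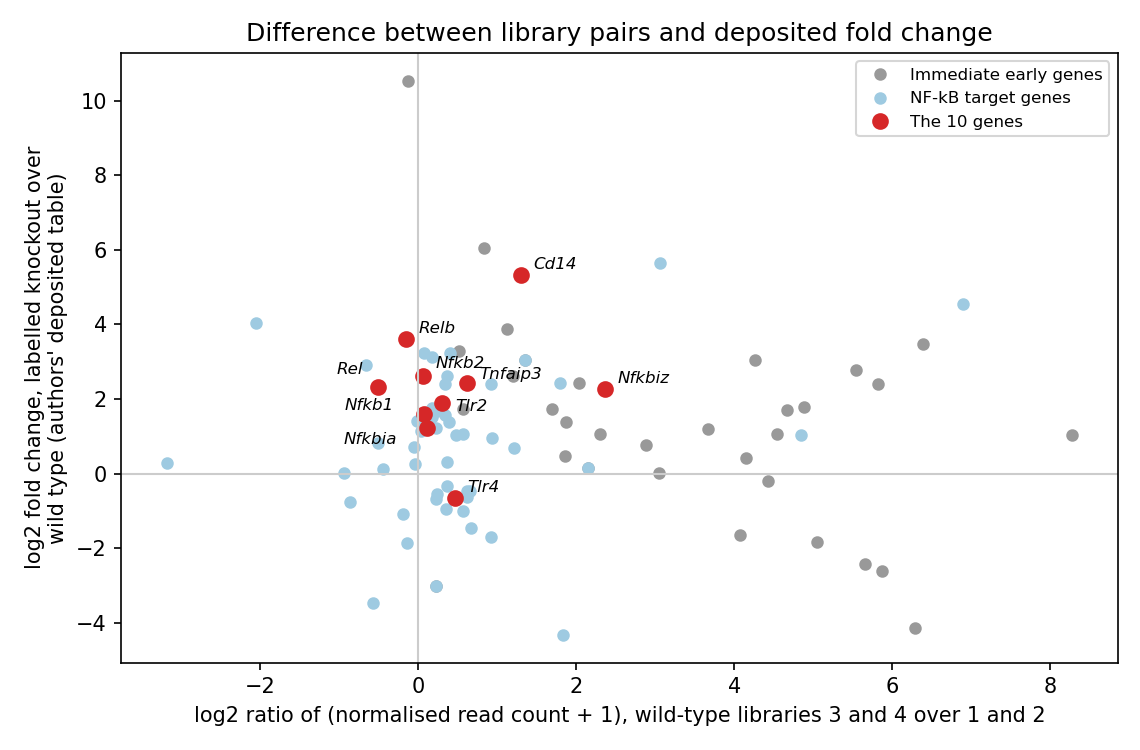
Each point is a gene, with the log2 ratio of wild-type libraries 3 and 4 over 1 and 2 (1 normalised read count added to each) on the horizontal axis and the log2 fold change of the arm labelled knockout over wild type, from the authors' deposited table, on the vertical axis. Of the 10 genes (red), Cd14 and Nfkbiz lie beyond 1 on the horizontal axis and the other 8 between -0.50 and 0.62, whereas most immediate early genes (grey) lie far to the right.

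Few genes at steps between receptor and NF-kB were called, as among all 21778 features tested, where 3.15% rose and 3.7% fell. None of 26 measured adaptor and kinase genes of Toll and interleukin-1 receptors rose and 2 fell, and the median log2 fold change per the authors' deposited table was 0.23. Ticam2, an adaptor that takes Tlr4 signals from the endosome, fell 13.6-fold, from 791 and 915 normalised read counts to 61.6 per the authors' deposited table (adjusted p = 0.00175). Tab1, a partner of the kinase Map3k7, fell 8.23-fold per the authors' deposited table (adjusted p = 0.0131). The shared adaptor Myd88 stood at 2379 and 2786 in the pairs and at 4977 in the arm labelled knockout, and was not called. Among 20 measured genes of the IkB kinase complex and its regulators 0 rose and 0 fell, and the median log2 fold change per the authors' deposited table was 0.48. The noncanonical kinase Map3k14 had log2 fold change 1.51 and adjusted p = 0.356 per the authors' deposited table.

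Receptors that share this pathway were called in both directions, where 3.15% of 21778 features tested rose and 3.7% fell. Of 9 genes of the LPS receptor and related proteins, Cd14 rose and Cd180 fell, and the median log2 fold change per the authors' deposited table was -0.75. Cd14 and Tlr4, which are in this list, were chosen with this difference known. Cd180, a Toll-like receptor homologue that restrains LPS responses, was steady in wild type at 993 and 994 normalised read counts and stood at 12.2 in the arm labelled knockout. It fell 69.7-fold per the authors' deposited table (adjusted p = 6.61e-07). Of 8 measured interleukin-1 family receptor genes 1 rose and 1 fell, and the median log2 fold change per the authors' deposited table was -0.39. The decoy receptor Il1r2 rose 11.4-fold, from 36.7 and 35.5 to 428, and the interleukin-33 receptor Il1rl1 fell 33.0-fold, from 220 and 328 to 7.25, per the authors' deposited table. Of 23 measured genes of the tumour necrosis factor receptor family and its Traf proteins, 2 rose and 1 fell, and the median log2 fold change per the authors' deposited table was 0.72. Tnfrsf12a, the receptor for the cytokine TWEAK, went from 80.3 and 97.5 to 4486 and rose 49.7-fold per the authors' deposited table. Tnfrsf13b, a receptor of B cell survival factors, was the one that fell, from 233 and 236 to 29.7. Tnfrsf9, the other that rose, was below 10 normalised read counts in wild type and at 45.8 in the arm labelled knockout.

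Most NF-kB target genes were not called, like most of the 21778 features tested, of which 3.15% rose and 3.7% fell. The list held 70 genes, 6 of which are among the 10 described, and 56 were measured, 3 of them only through the arm labelled knockout. Of these 11 rose, 3 fell and 42 were not called, and the median log2 fold change per the authors' deposited table was 1.05. The 11 include Nfkb2 and Relb, which were chosen on this contrast, and Sele and Cd80, which reached the minimum level only in the arm labelled knockout, so the count is a description. The median also partly describes the choice, through the 6 genes of the list that are among the 10. Interleukin-10, an anti-inflammatory cytokine encoded by Il10, went from 3.15 and 33.6 normalised read counts to 987 and rose 49.7-fold per the authors' deposited table (adjusted p = 3.60e-06). Ptgs2, the inducible enzyme of prostaglandin synthesis, went from 10.5 and 1365 to 16289, so that its wild-type pairs were themselves 130-fold apart. It rose 23.6-fold per the authors' deposited table. The adhesion molecule Icam1 rose 6.11-fold, from 2116 and 2719 to 14788, per the authors' deposited table. Sele, an endothelial adhesion molecule that was listed among targets, reached 45.8 from 3.15 and 0.

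The targets that fell were Ccl3, Il1b and Myc. Ccl3, a chemokine, went from 42.0 and 152 normalised read counts to 3.96 and fell (log2 fold change -4.32, the authors' deposited table). Il1b, the classic inflammatory cytokine, was at 36.2 and 24.1 in wild type and fell to 1.65, by 10.97-fold per the authors' deposited table (adjusted p = 0.0179). Myc fell 8.08-fold per the authors' deposited table. Tnf stood at 56.1 and 132 in the pairs and 152 in the arm labelled knockout, and was not called. Between the wild-type pairs, Ier3 went from 938 to 4167, whereas Lcn2, also a neutrophil granule gene, went from 2358 to 259. Of 25 measured feedback regulators, which include Tnfaip3, 1 rose and 1 fell, where 3.15% and 3.7% of 21778 features tested did. Tnfaip3 was chosen with this difference known. The median log2 fold change of the 25 per the authors' deposited table was 1.06, which partly describes that choice. That median was 1.47 with the first wild-type pair as reference and 0.64 with the second. The gene that rose was Klf4 and the gene that fell Klf2, which were themselves 19.8-fold and 79.4-fold apart between the wild-type pairs. Klf2 stood at 51.4 and 4082 in the pairs and at 117 in the arm labelled knockout, so its fall holds against libraries 3 and 4 and not against libraries 1 and 2.

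**Figure D4:**
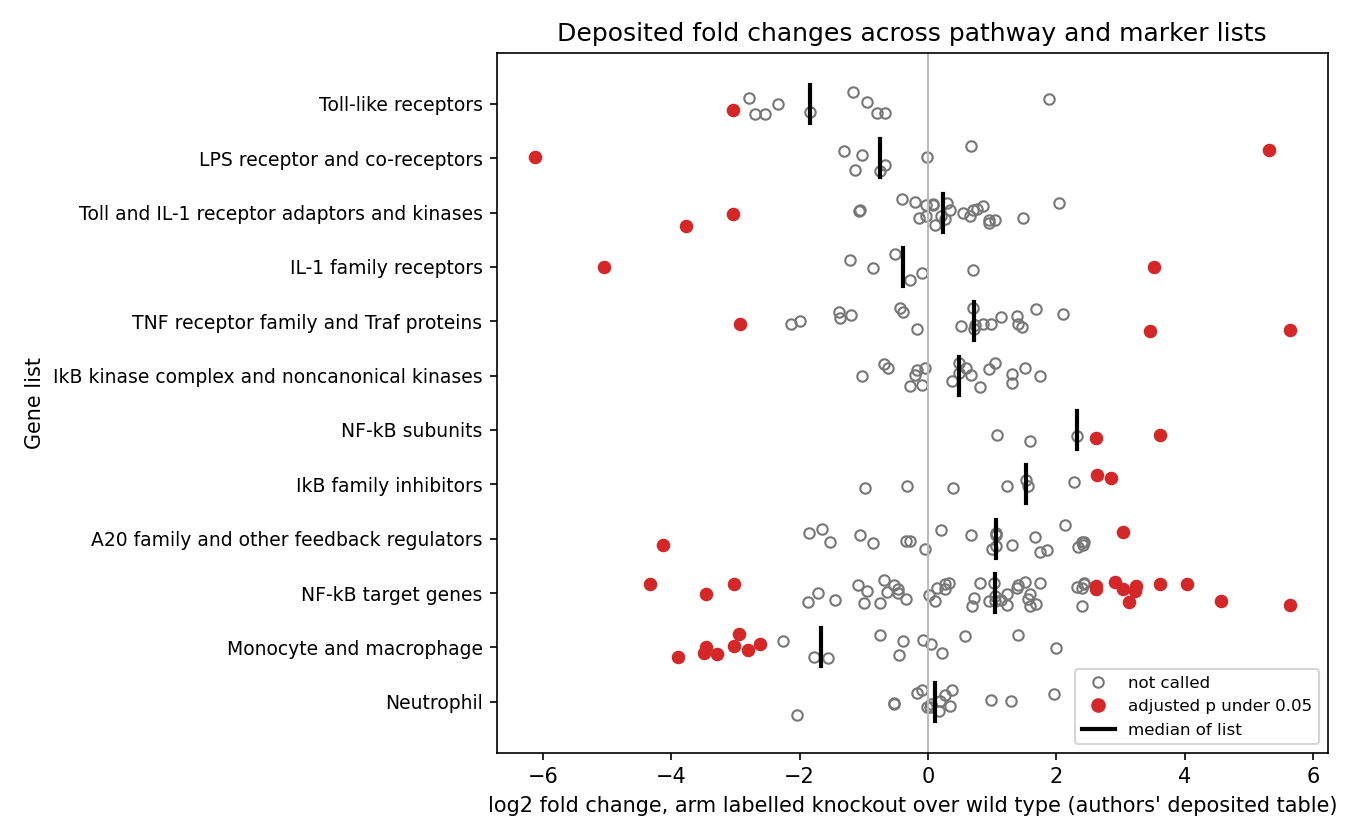
Each point is a measured gene of the list named on the left, placed by its log2 fold change, arm labelled knockout over wild type, as the authors' deposited table gives it, with genes below an adjusted p of 0.05 filled in red and a bar at the median of each list. The medians of NF-kB subunits and IkB family inhibitors lie at 2.32 and 1.53, those of Toll-like receptors and of monocyte and macrophage markers at -1.83 and -1.67. Cd14, Tnfaip3, Nfkb1, Nfkb2, Rel, Relb, Nfkbia, Nfkbiz, Tlr2 and Tlr4 were chosen with this difference known, so the medians of their lists partly describe the choice. Several Toll-like receptor genes and macrophage markers reached the minimum level only through wild type.

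Cd14 is best known as a marker of monocytes and macrophages, so other markers of those cells were examined beside it. Of 23 listed, 20 were measured, and 0 rose and 8 fell, where 3.15% and 3.7% of 21778 features tested did. Among the 8, Fcgr1, Cx3cr1, C1qc and Cd5l were at 1.32, 6.59, 8.24 and 9.23 in the arm labelled knockout. These reached the minimum level only through wild type, so the count is a description. With a minimum level of 50, 6 fell. The median log2 fold change per the authors' deposited table was -1.67, with 15 negative values and 5 positive ones. Ccr2 was among the 5, at 180 and 522 normalised read counts in the pairs and 1408 in the arm labelled knockout, and was not called. The complement genes C1qb and C1qc, the scavenger protein Cd5l and the Fc receptor Fcgr1 fell 11.2-fold, 14.8-fold, 11.01-fold and 9.73-fold per the authors' deposited table. Fcgr1 had only 35.7 and 13.7 normalised read counts in the wild-type pairs. Csf1r, the macrophage growth factor receptor, was at 269 and 280 normalised read counts in the pairs and 79.4 in the arm labelled knockout, and was not called. The summed level of the list was 15253 to 15615 in the wild-type libraries and 13937 in the arm labelled knockout, most of it Lyz2, and Marco had 0 reads in libraries 1 and 2. Between the wild-type pairs, 7 of 21 measured markers of monocytes and macrophages were at least 2-fold lower in libraries 3 and 4, where Cd14 was higher, and 1, Ccr2, was at least 2-fold higher.

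Neutrophil markers were also examined, and their part in the level of Cd14 was not tested. None of 16 was called per the authors' deposited table, where 3.15% of 21778 features tested rose and 3.7% fell. Between the pairs, 13 were at least 2-fold lower in libraries 3 and 4, with Ngp at 9185 and 1096. Their summed level was 59293 and 58563 in the first pair, 17337 and 17186 in the second, and 39021 in the arm labelled knockout. The median log2 ratio of the list was -0.64 with the first pair as reference and 2.13 with the second. Retnlg, at 66.6 and 109 in the pairs and 355 in the arm labelled knockout, had the same order as Cd14. It was picked after its values were seen, and the 13 markers lower in libraries 3 and 4 had another order. Of the 16, 10 had a positive log2 fold change and 6 a negative one per the authors' deposited table. Among 9 measured dendritic cell markers 0 rose and 1, Itgax, fell. Among 7 measured lymphocyte markers 0 rose and 2 fell (Il7r and Nkg7), and among 10 endothelial and stromal markers 0 rose and 2 fell (Lepr and Cxcl12). Of the 12 HSC markers, 1 fell, Cd34, from 14026 and 13123 normalised read counts to 514, by 26.4-fold per the authors' deposited table.

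Genes whose levels followed Cd14 most closely over the 2 wild-type pairs and the arm labelled knockout were found by the distance between centred log2 levels, among 11452 other genes with a mean of at least 50. The nearest were Tm4sf1 at a distance of 0.19, Nfil3 at 0.25, Thbs1 at 0.28, Pgf at 0.29 and Lor at 0.34. Pgf stood at 3.15 and 7.12 in the pairs and 297 in the arm labelled knockout, and Lor at 4.71, 18.5 and 438. Both reached the mean of 50 only through the arm labelled knockout. Tm4sf1, a membrane protein of the tetraspanin-like family, stood at 166 and 442 in the pairs and 14004 in the arm labelled knockout. Nfil3, a transcription factor, stood at 95.5, 184 and 5822, and the matrix glycoprotein gene Thbs1 at 98.1, 274 and 9076. A distance over 3 values, 2 of them from 1 biological replicate, describes these levels only.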

How the data were processed

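Sorted HSC RNA went through polyA selection and a Tru-Seq RNA preparation, per the labels, which do not state that strand was kept. Whole-number counts per feature were deposited by the authors. The sources used here do not name the aligner or counting tool. DESeq and the mm9 build appear, without role or version, per the submitters' processing notes. A length-scaled signal deposited by the authors under an FPKM heading is the count per kb of exon over a constant, and gave exon lengths. The mean count of the knockout arm, also a signal by the authors, was placed on the wild-type scale with the offset of 0.40 (log2) seen between the deposited log2 fold change and the ratio of means. The header of the p-value deposited by the authors does not say whether it is adjusted; it is read as adjusted because its values are heavily tied and run up to 1. Of 30 columns, 8 hold per-library values with no sample here and were not used.

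Size factors were medians of ratios to the geometric mean, with edgeR 4.0.16 (TMM) and library totals as alternatives. Agreement of libraries was tested with a chi-square test per feature with at least 20 reads. No test between genotypes was run. With a floor of 3 counts, no reads at these depths is compatible with at most 0.0737 CPM. The size factors, folds and motif search were tested on simulated data. The members, the 17 gene lists and the tests were chosen with earlier results of these data known. Named genes are all members, up to 4 called genes and up to 4 genes at least 4-fold apart between the pairs (mean at least 50) per list, and the 5 genes nearest to Cd14, with examples given. Other genes named, such as Rela, Ly96, Tlr1, Tlr6, Myd88, Map3k14, Nfkbib, Nfkbie, Tnfrsf9, Icam1, Il1b, Myc, Tnf, Csf1r, Lyz2, Marco, Ccr2 and Retnlg, were chosen after their values were seen. Otulin and Adgre1 had no match by name, the latter being listed also as Emr1.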

Additional observations from a re-analysis of the deposited data

How the results depend on the processing

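The number of genes of the 10 at least 2-fold higher in libraries 3 and 4 was 2, Cd14 and Nfkbiz, also with library totals, edgeR's TMM, 1 count added, and each library left out (range 2 to 2). The number at least 2-fold above wild type in the arm labelled knockout was 9 with either pair alone as reference, with library totals or TMM (added later), and with each library left out (range 9 to 9). It was 8 with the knockout mean as deposited, which lowers every log2 ratio by 0.40 and takes Nfkbia below 2-fold, at 0.84 on the log2 scale. The sign of no member changed under these settings. The median log2 ratio of the neutrophil list turned from 0.11 to -0.64 with only libraries 1 and 2 as reference and was 2.13 with only libraries 3 and 4, and the cause was not tested. For the Toll-like receptors the median was -2.30 with only the first pair as reference and -1.18 with only the second. With a minimum level of 50, fewer genes were tested and the calls of several lists changed. Genes that rose went from 2 to 1 in the tumour necrosis factor receptor list and from 11 to 9 among NF-kB target genes. Genes that fell went from 3 to 2 among NF-kB target genes and from 8 to 6 among monocyte and macrophage markers. They went from 1 to 0 among dendritic cell markers, and from 2 to 1 among lymphocyte and among endothelial and stromal markers. The calls of the other lists did not change. None of the 5 genes nearest to Cd14 was among the 5 with the highest Pearson correlation over the 4 libraries and the knockout mean. No paired analysis was possible because the samples form 1 group. The arm labelled knockout is a mean without its spread, and Cd14 rests on at most 91 reads in a wild-type library.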
